A study of Mus musculus with 13 samples.

Results

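Ribosome footprints were described for 10 genes of linker histones and replacement histone variants, of 22406 gene symbols in the tables. The rows were taken by symbol, from a list made with earlier results of these data known. They were 5 replication-dependent linker histone genes of the histone cluster (Hist1h1a, Hist1h1b, Hist1h1c, Hist1h1d and Hist1h1e, here Hist1h1 genes) and 5 replacement variant genes (H1f0, H2afx, H2afz, H3f3a and H3f3b). The study asked which responses to endoplasmic reticulum (ER) stress need PERK, the ER stress kinase that phosphorylates eIF2α and so lowers translation initiation. Mouse embryonic fibroblasts (MEFs) labelled PERK WT or PERK −/− were left untreated (control) or given 1 uM thapsigargin (Tg), which blocks the calcium pump of the ER, during 1, 2, 5 or 8 h. NIH3T3 cells, an established line of mouse fibroblasts with no change of PERK in the labels, were left untreated or given 200 nM Tg during 2 or 7 h. A single library stood for each of the 13 conditions. No test between conditions was therefore possible, and no difference can be set against the spread of replicates.

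Linker histones bind the DNA that enters and leaves the nucleosome. The Hist1h1 genes, like the core histone genes, are expressed mainly in S phase from mRNAs that end in a conserved stem-loop instead of a poly(A) tail, and the stem-loop is bound by SLBP (stem-loop binding protein), which serves in processing, stability and translation of these mRNAs. Replacement variants are made throughout the cell cycle, mostly from polyadenylated mRNAs. H1f0 encodes the linker histone that is typical of cells that leave the cycle, H2afx the H2A.X that is phosphorylated at DNA breaks, H2afz the H2A.Z of promoters, and H3f3a and H3f3b encode the same protein, H3.3.

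To show the 3′ ends on which the division into groups rests, the histone stem-loop was searched after the stop codon of the annotated transcripts (GENCODE vM21, GRCm38, the assembly also called mm10). The search asked on the sense strand for a stem of 6 base pairs with G-C as its outer 2 pairs and pyrimidines in its 5′ arm, closed by a loop of 4 bases. The loop had to begin with T and a pyrimidine and end in A or C, and G-T pairs were allowed within the stem. Such a stem-loop was found in 4 of the 5 Hist1h1 genes and in 1 of the 5 replacement variants. Capitals mark the stem-loop and lower case the bases beside it.
Hist1h1a: ccaacGGCTCTTTTCAGAGC
Hist1h1c: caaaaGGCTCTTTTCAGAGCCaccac
Hist1h1d: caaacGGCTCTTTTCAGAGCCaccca
Hist1h1e: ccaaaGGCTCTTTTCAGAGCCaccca
H2afx: acaaaGGCCCTTTTAAGGGCCaccac

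The stem-loops lay at chr13:23764392-23764406 (+) for Hist1h1a, chr13:23739512-23739527 (+) for Hist1h1c, chr13:23555787-23555802 (+) for Hist1h1d, chr13:23621782-23621797 (−) for Hist1h1e and chr9:44335240-44335255 (+) for H2afx, all in the 3′ UTR and 25 to 47 nt after the stop codon. The transcript of Hist1h1a ended 1 base before the end of the stem, which was counted as a match. The annotated transcript of Hist1h1b ended at the stop codon, so nothing was left to search. H1f0, H2afz, H3f3a and H3f3b held no such letters. A polyadenylation signal lay near an annotated end of H1f0, H2afz and H3f3a but not of H3f3b. H2afx is known for both kinds of mRNA, and its annotated transcript ran on for 822 nt after the stem-loop and ended near a polyadenylation signal. The annotated transcript of Hist1h1c did the same over 840 nt, and those of Hist1h1d and Hist1h1e ran on for 4884 and 1153 nt with no such signal near their ends, so the annotation alone does not set H2afx apart from these genes. Among all genes with an annotated 3′ UTR the stem-loop was found in 56 of 19329 (0.290%), and among core histone genes in 37 of 47 (78.7%).

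All Hist1h1 genes lie on chromosome 13 and have 1 exon, with coding sequences of 636 nt (Hist1h1c) to 669 nt (Hist1h1b). H1f0 on chromosome 15 and H2afx on chromosome 9 also have 1 exon, whereas H2afz on chromosome 3 has 5 exons, H3f3a on chromosome 1 has 4 and H3f3b on chromosome 11 has 6. The coding sequences of H2afx (69.9% G and C), Hist1h1c (63.7%), Hist1h1d (62.6%) and Hist1h1e (61.8%) were the richest in G and C, and those of H3f3a (52.0%) and H2afz (54.2%) the poorest.

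How well a footprint can be given to 1 of these genes differs between them. Of the windows of 28 nt along the clipped coding sequence, 99.1% of Hist1h1a and 94.8% of Hist1h1b were found in no other gene of the tables. Hist1h1c, Hist1h1d and Hist1h1e had 65.9%, 60.1% and 65.1% of such windows and shared the rest mainly with each other, and H2afx had 63.5% and shared the rest with H2A genes of the core. The authors' estimate divides such reads between the genes, so single values of Hist1h1c, Hist1h1d, Hist1h1e and H2afx are less certain than their counts imply. H1f0, H2afz, H3f3a and H3f3b shared no window with another coding gene. The processed pseudogene H3f3c, which is also a row of the tables, held 79.8% of the windows of H3f3a and none of H3f3b, but it took only 0 to 66 counts in a library.

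Libraries held 2525029 (WT, 2 h) to 14799515 expected counts (PERK −/−, 2 h), and a member had 154 to 13863 counts in a library, so counting error was small beside most changes given here. Footprint levels are given as TPM, a share of the library per coding length, so a gain is a gain relative to all other translated genes and holds nothing on the absolute output. All 10 genes passed the filter of a mean of at least 2 TPM, as did 10432 genes in the MEF table and 10117 in the NIH3T3 table. Eif2ak3, which encodes PERK, still had footprints in the libraries labelled PERK −/−, at 7.64 to 19.1 CPM (counts scaled to the library total) against 14.4 to 33.3 CPM in WT, and gene tables do not show on which part of the gene they lay. On the TPM scale the ranges overlapped, with 5.21 to 17.2 TPM in PERK −/− and 6.03 to 15.7 TPM in WT. Atf4, a target of the PERK pathway, was at 487 to 576 TPM in the Tg libraries of WT MEFs and at 25.1 to 60.2 TPM in those of PERK −/− MEFs. All 7 fibroblast markers were expressed in both tables, while the 3 leukocyte markers summed to at most 4.49 TPM in MEFs and 48.5 TPM in NIH3T3 cells.

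**Figure D1:**
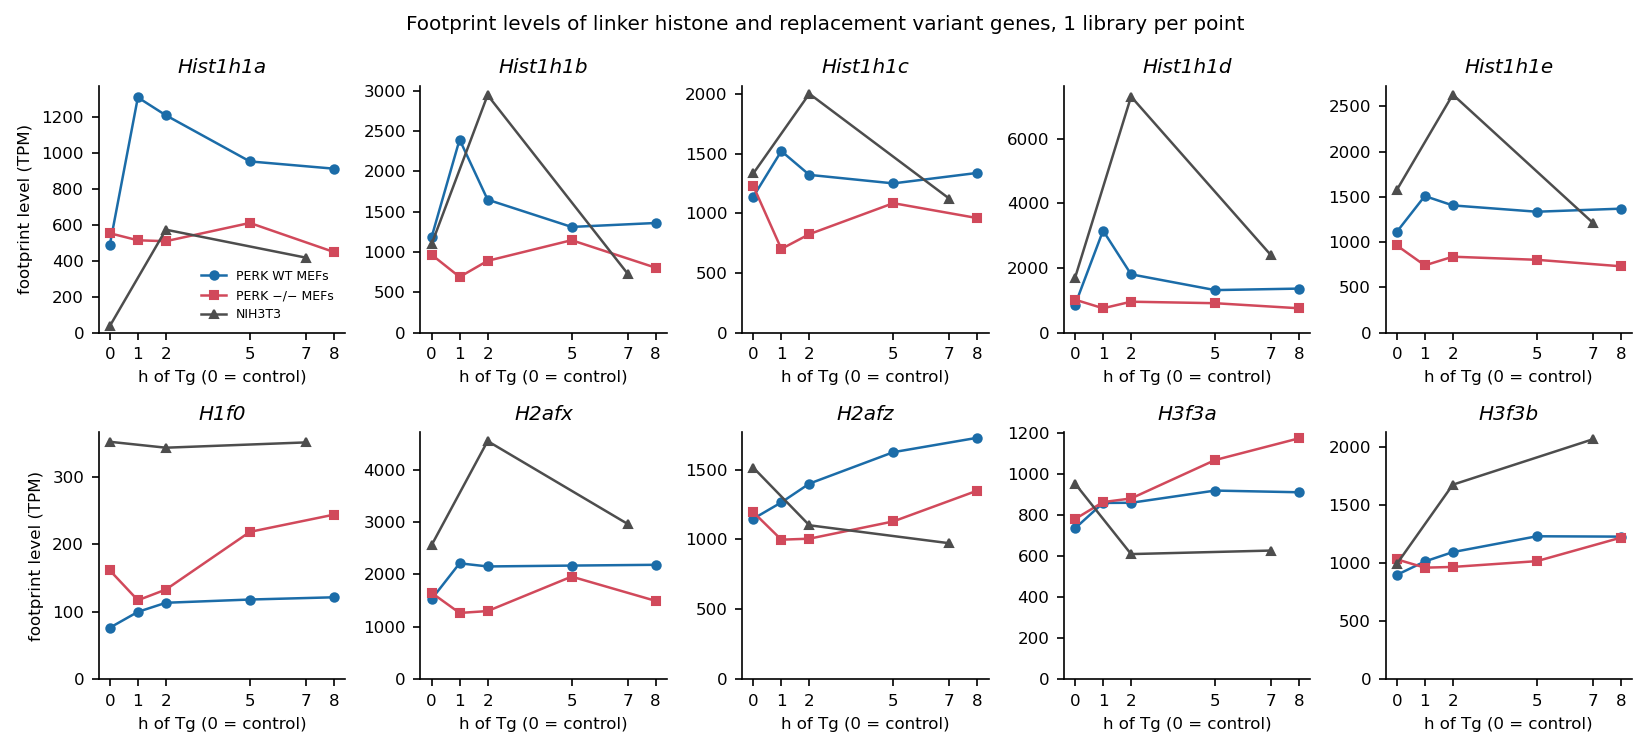
Footprint levels (TPM, axes from 0) of the 10 genes against hours in Tg, 0 being the control, with 1 library per point and lines only to guide the eye. The Hist1h1 genes of PERK WT MEFs (circles) were highest at 1 h, those of NIH3T3 cells (triangles) at 2 h, and those of PERK −/− MEFs (squares) had no value above the 1228 TPM of Hist1h1c in the control.

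In WT MEFs, the Hist1h1 genes gained footprints early. After 1 h of Tg the 5 genes together rose from 4784 to 9890 TPM (2.07-fold), which was 0.989% of the library, and after 2, 5 and 8 h they stood at 7390, 6165 and 6342 TPM. Hist1h1d and Hist1h1a led at 1 and 2 h. The replacement variants together had 4383 TPM in the control, 5447 TPM after 1 h and their highest sum, 6169 TPM (1.41-fold), after 8 h. The 4 Tg libraries shared 1 control, so their changes are not independent.

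Hist1h1d had 858 TPM in the control of WT MEFs and 3156, 1803, 1315 and 1361 TPM after 1, 2, 5 and 8 h of Tg. The change at 1 h was 3.68-fold, with a 95% interval of 1.85 to 1.94 on the log2 scale of counts per library total. This interval, like all others for changes, is the exact conditional (Clopper-Pearson) interval and covers counting error only. Every Tg library was above the control, and the highest, at 1 h, fell back by 2 h to 0.571 of its value.

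Hist1h1a rose from 490.4 TPM to 1312 and 1212 TPM after 1 and 2 h and was at 955 and 914 TPM after 5 and 8 h. Among the Hist1h1 genes it had the highest fold at 2, 5 and 8 h, with 2.67-fold at 1 h (log2 interval 1.36 to 1.505) and 1.86-fold at 8 h (0.84 to 0.96). Hist1h1b was at 1183, 2393, 1648, 1309.8 and 1359 TPM in the same order, a gain of 2.02-fold at 1 h that had shrunk to 1.15-fold at 8 h. Both genes have windows that are almost all their own.

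Hist1h1c (1139.9 TPM in the control) was between 1251 and 1521 TPM in the Tg libraries, and Hist1h1e (1113 TPM) between 1335 and 1509 TPM. Their largest gains, at 1 h, were 1.33-fold and 1.36-fold. Hist1h1c, Hist1h1d and Hist1h1e, which share windows, were also summed, and the sum of their counts does not depend on how reads were divided between them. Per library total, this sum of counts was above the control by 1.02 on the log2 scale at 1 h (interval 0.99 to 1.05). At the later times it was above by 0.55, 0.33 and 0.39. Their summed TPM, which can depend on that division because coding lengths differ, was 1.99-fold at 1 h and 1.46-, 1.25- and 1.31-fold at the later times.

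By the rule of at least 2-fold, which the study also used, 3 of 5 Hist1h1 genes were up at 1 h (Hist1h1a, Hist1h1b and Hist1h1d), where 4.33% of all expressed genes were. At 2 h 2 of 5 were up (Hist1h1a and Hist1h1d) against 5.66% of all, and at 5 and 8 h none was, against 5.86% and 6.45%. Hist1h1b at 1 h and Hist1h1d at 2 h were close to the threshold and came to log2 values of 0.94 and 0.99 with TMM factors and to 0.92 and 0.74 with the trend on G and C content removed. No member was down at least 2-fold at 1, 2, 5 or 8 h, where 2.29%, 4.01%, 3.55% and 3.87% of the expressed genes were. All 5 Hist1h1 genes lay above their control at all 4 times. Their median log2 change was 1.02, 0.48, 0.26 and 0.30 at these times, while the median of all expressed genes was 0.00 to 0.01.

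None of the 5 replacement variants was up 2-fold at any time in WT MEFs, where 4.33% to 6.45% of all expressed genes were. Their changes were small and all positive, with log2 medians of 0.22, 0.29, 0.50 and 0.52 after 1, 2, 5 and 8 h. H1f0 went from 76.3 TPM to 99.7, 113, 118 and 121 TPM, 1.59-fold at the last time (log2 interval 0.50 to 0.84). It was the least abundant of the 10 genes in each WT library.

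H2afz was at 1148 TPM in the control and at 1265, 1399, 1625 and 1728 TPM at 1, 2, 5 and 8 h, a log2 change of 0.59 by 8 h with each library above the one before. H2afx went from 1526 TPM to between 2149.8 and 2209.7 TPM in all 4 Tg libraries (1.41-fold to 1.45-fold), so its later values stayed near that at 1 h. Among the H3.3 genes, H3f3a went from 736 TPM to between 860.2 and 920.5 TPM, and H3f3b from 897 TPM to between 1013 and 1229.7 TPM. The libraries at 5 and 8 h differed little in all replacement variants, by at most 0.09 on the log2 scale, where the SD over all expressed genes was 0.19.

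A correction for G and C content moved the WT changes of H2afx, Hist1h1c, Hist1h1d and Hist1h1e most, the members richest in G and C. Where the trend of the change on G and C content over all expressed genes was removed, Hist1h1a stayed above its control by 1.33 on the log2 scale at 1 h and 0.65 at 8 h, and Hist1h1d by 1.69 and 0.21. Hist1h1c, Hist1h1e and Hist1h1b then lay below the control at 8 h, at −0.26, −0.13 and −0.08, and the median of the Hist1h1 genes was −0.10 at 5 h and −0.08 at 8 h. H2afx moved to −0.06, −0.08 and −0.15 at 2, 5 and 8 h. H1f0, H2afz, H3f3a and H3f3b stayed above 0 at every time. Whether the trend arises in the libraries or in the cells was not tested.

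**Figure D2:**
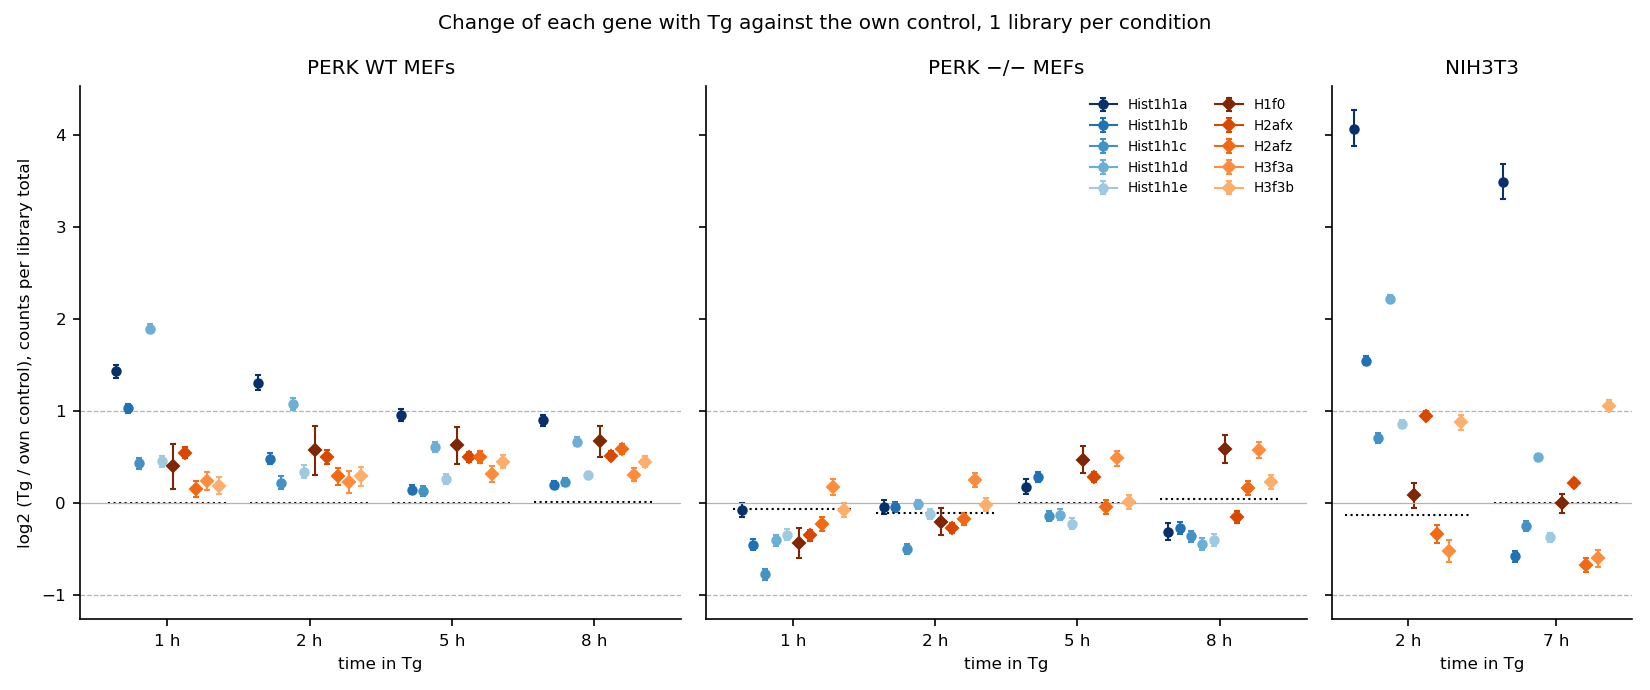
Log2 change of each gene against the control of the same cells, as counts per library total with 95% counting intervals, for the Hist1h1 genes (circles) and the replacement variants (diamonds). Dashed lines mark 2-fold and dotted lines the median TPM change of all expressed genes, and all 10 genes of WT MEFs lie above 0 while no gene of PERK −/− MEFs reaches 2-fold.

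In PERK −/− MEFs, the Hist1h1 genes did not gain footprints at 1 h. Together they went from 4729 TPM in the control to 3401, 4019, 4555 and 3699 TPM after 1, 2, 5 and 8 h, so that each Tg library was below the control. At 5 h the log2 interval of the summed counts, −0.05 to 0.01, included no change. Hist1h1c was lowest relative to its control at 1 h. Of the replacement variants, 4 of 5 were above their controls at 8 h, H1f0 and H3f3a by most, and H2afx was below.

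Hist1h1c was at 1228 TPM in the control and at 701, 825, 1085 and 959.7 TPM in the Tg libraries. The change at 1 h was 0.571-fold (log2 interval −0.84 to −0.72), at percentile 6.47 of all expressed genes. Hist1h1d stood at 1018, 753, 956, 909 and 752 TPM, and Hist1h1e at 963, 743, 838, 804 and 733 TPM. In both, all 4 Tg libraries were lower than the control, but the log2 interval of Hist1h1d at 2 h, −0.07 to 0.04, included no change.

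Among the Hist1h1 genes, Hist1h1a was nearest to its control at 1 h, with 554 TPM in the control and 515, 509.8, 612 and 449 TPM in the Tg libraries. Hist1h1b went from 966 TPM to 689.7, 889.65, 1146 and 805 TPM. These were the 2 Hist1h1 genes above their control at 5 h, by 1.10-fold and 1.19-fold. At 1, 2 and 8 h all 5 Hist1h1 genes were below their controls, while 35.8%, 32.7% and 53.7% of all expressed genes were above theirs. Counting intervals lay wholly below 0 for 4, 2 and 5 of the 5 genes at these times.

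None of the 10 genes changed 2-fold in PERK −/− MEFs in either direction. Upward, 0.719%, 0.623%, 3.26% and 3.28% of all expressed genes did so at 1, 2, 5 and 8 h, and downward 3.38%, 5.78%, 4.77% and 2.73%. The median log2 change of the Hist1h1 genes was −0.44, −0.12, −0.16 and −0.36 in this order, beside −0.06, −0.11, 0.00 and 0.04 for all expressed genes. At 2 h the Hist1h1 median was therefore within 0.01 of that of all genes, and it took the other sign, 0.12, once the trend on G and C content was removed.

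H1f0 was at 161 TPM in the control, at 117 and 133 TPM in the early and at 218 and 244 TPM in the late libraries. It was 0.726-fold at 1 h (log2 interval −0.60 to −0.27) and 1.51-fold at 8 h (0.44 to 0.74). H3f3a was higher in each later library, at 781, 864, 882, 1069.6 and 1176 TPM, a log2 change of 0.59 by 8 h. H3f3b was at 1031, 959, 966, 1015 and 1218 TPM, close to its control until 5 h.

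H2afx (1647 TPM in the control) was at 1262 and 1298 TPM at 1 and 2 h, at 1956 TPM at 5 h and at 1493 TPM at 8 h. H2afz (1194 TPM) was at 998, 1005, 1129 and 1349 TPM. Both were below the control in the early libraries. The PERK −/− libraries at 2 and 5 h stood farther apart over all expressed genes (SD of the log2 ratios 0.61) than the WT libraries at these times (0.35), so a step between these PERK −/− libraries weighs less.

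Side by side at 1 h, PERK −/− MEFs had 0.239 of the WT level of Hist1h1d, 0.288 of Hist1h1b, 0.392 of Hist1h1a, 0.461 of Hist1h1c and 0.492 of Hist1h1e. In the controls the same ratios lay between 0.816 (Hist1h1b) and 1.19 (Hist1h1d), so the genotypes started close to each other. H3f3a (1.00 at 1 h) and H3f3b (0.948) hardly differed between genotypes at 1 h. At 8 h Hist1h1a was at 0.492 of WT, Hist1h1e at 0.535 and Hist1h1c at 0.717.

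H1f0 was the member that differed most between the untreated genotypes, at 2.11 times the WT level in PERK −/− MEFs (log2 interval 0.90 to 1.25). After 1 and 2 h it was at 1.17 times WT, and after 5 and 8 h at 1.85 and 2.01 times. Each genotype was 1 set of libraries of its own cells, so PERK and other differences between these cells cannot be told apart.

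In NIH3T3 cells the Hist1h1 genes gained footprints early. At 2 h the 5 genes together rose from 5740 to 15454 TPM (2.69-fold), 1.55% of the library, and at 7 h they were back at 5877 TPM. Hist1h1a rose from a low level and stayed up. The pair of H3.3 genes moved apart, with H3f3b above and H3f3a below its control at both times.

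Hist1h1a went from 37.0 TPM (268 counts) in untreated cells to 574 TPM (1044 counts) at 2 h and 418 TPM (1567 counts) at 7 h. The gains were 15.5-fold (log2 interval 3.88 to 4.27) and 11.3-fold (3.31 to 3.69), above those of 99.97% and 99.96% of the expressed genes. In the control it held rank 3616 of the library and at 2 h rank 303. Its windows are nearly all found in no other gene of the tables. Whether reads of another Hist1h1 gene were assigned to it was not tested.

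Hist1h1d had 1698, 7304 and 2392 TPM in the control and after 2 and 7 h. At 2 h it was the gene with rank 5 of the whole library, 4.30-fold above the control in TPM, and at 7 h it was 1.41-fold above. As counts per library total, its log2 change at 2 h was 2.23 (interval 2.19 to 2.26). Hist1h1b rose from 1095 to 2944 TPM at 2 h (2.69-fold) and was at 731 TPM at 7 h (0.668-fold). It thus ended below its control.

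Hist1h1e had 1576, 2629.7 and 1214 TPM and Hist1h1c 1334, 2002 and 1122 TPM, control first and then 2 and 7 h. Both were above the control at 2 h, by log2 0.74 and 0.59, and below it at 7 h. The sum of Hist1h1c, Hist1h1d and Hist1h1e was 2.59-fold at 2 h and 1.03-fold at 7 h.

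At least 2-fold up were 3 of 5 Hist1h1 genes at 2 h (Hist1h1a, Hist1h1b and Hist1h1d) and 1 of 5 at 7 h (Hist1h1a), where 5.76% and 7.01% of all expressed genes were. Of the replacement variants none was up at 2 h and 1 of 5, H3f3b, at 7 h. No member was 2-fold down at 2 or 7 h, where 3.76% and 8.06% of the expressed genes were. The median log2 change of the Hist1h1 genes was 1.43 at 2 h and −0.25 at 7 h, against −0.13 and 0.00 for all expressed genes.

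H3f3b went from 991 TPM to 1674 TPM at 2 h (1.69-fold) and rose to 2065 TPM at 7 h (2.08-fold, log2 interval 1.00 to 1.12). H3f3a went from 954 TPM to 610.3 and 628 TPM, 0.640-fold and 0.658-fold. The sum of the pair changed less than either gene, 1.17-fold at 2 h and 1.38-fold at 7 h.

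H2afz was also below its control, with 1514 TPM there, 1101 TPM at 2 h and 973 TPM at 7 h (0.643-fold). H2afx went from 2557 to 4542 TPM at 2 h (1.78-fold) and was at 2962 TPM at 7 h, a course like that of the summed Hist1h1 genes. H1f0 was at 352, 343 and 351 TPM, and its intervals included no change at both times (log2 −0.05 to 0.22 and −0.11 to 0.10). The dose of Tg was lower than in the MEFs and only the control and 2 h are times that both have, so values of the 2 kinds of cells stand side by side with no test of a difference.

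The composition of the linker histone output is free of any scaling between libraries. In WT MEFs H1f0 made up 1.57% of the TPM of the 6 linker histone genes in the control (95% exact binomial interval 1.43 to 1.71), 0.998% after 1 h (0.864 to 1.15), 1.51% after 2 h and 1.88% after 5 and 8 h. In PERK −/− MEFs its share was 3.297% in the control (3.04 to 3.57), 3.32% and 3.20% in the early libraries, 4.58% after 5 h and 6.19% after 8 h (5.82 to 6.58). In NIH3T3 cells it was 5.78% in the control, 2.17% after 2 h (2.00 to 2.36) and 5.64% after 7 h.

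Among these 6 genes, which leave out the linker histone gene H1fx, H1f0 had the least share in every library of WT MEFs. Its share was lowest when the Hist1h1 sum was highest in WT MEFs and in NIH3T3 cells. The Hist1h1 genes make up nearly all of the total, so a rise in them lowers the share of H1f0 by itself. The level of H1f0 went from 76.3 to 99.7 TPM in WT MEFs at 1 h and from 352 to 343 TPM in NIH3T3 cells at 2 h. Hist1h1d made up 17.6% of linker histone TPM in the control of WT MEFs and 31.6% at 1 h, and in NIH3T3 cells 27.9% in the control, 46.2% after 2 h and 38.4% after 7 h. In PERK −/− MEFs its share lay between 19.0% and 23.0% in all 5 libraries. Hist1h1a was 10.1% in the control of WT MEFs and 13.1% to 16.2% after Tg, and only 0.607% in untreated NIH3T3 cells, where it reached 6.71% at 7 h.

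H3f3b gave 54.9% of the H3.3 footprints in untreated WT MEFs (interval 53.7 to 56.1) and 54.1% to 57.4% after Tg. In PERK −/− MEFs its share was 56.9% in the control and 48.7% to 52.6% after Tg. In NIH3T3 cells it went from 51.0% (49.9 to 52.0) to 73.3% at 2 h (71.5 to 75.0) and 76.7% at 7 h (75.6 to 77.8). No MEF library had a share outside 48.7% to 57.4%.

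**Figure D3:**
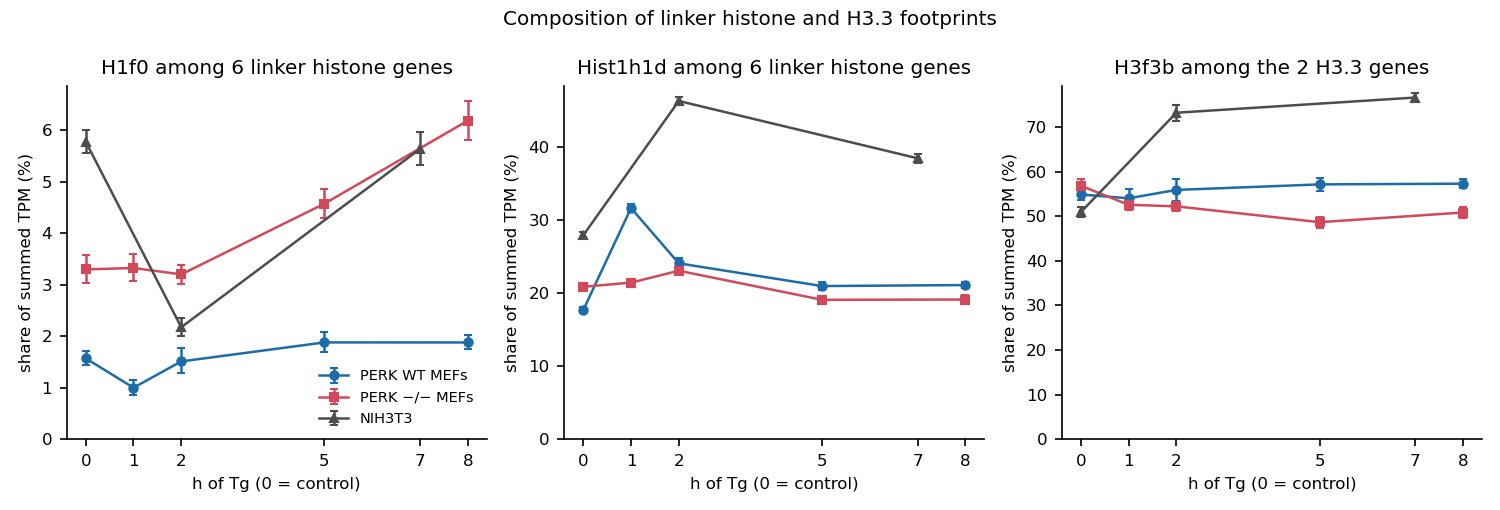
Shares of summed TPM (percent, axes from 0) against hours in Tg, 0 being the control, with exact binomial 95% intervals from the counts and 1 library per point. The share of H1f0 dips in WT MEFs at 1 h and in NIH3T3 cells at 2 h and reaches 6.19% in PERK −/− MEFs at 8 h. Hist1h1d peaks where H1f0 dips, but both are shares of the same total and so are not independent. H3f3b reaches a share of 76.7% in NIH3T3 cells.

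The other genes of the histone pathway were read from lists of symbols. Of 58 expressed core histone genes, 36, 45, 41 and 45 were up at least 2-fold in WT MEFs at 1, 2, 5 and 8 h, with median log2 changes of 1.11, 1.30, 1.21 and 1.32. Of all expressed genes, 4.33%, 5.66%, 5.86% and 6.45% were up. At each time 1 core gene was down, against 2.29%, 4.01%, 3.55% and 3.87% of all. The median of the Hist1h1 genes was near that of the core genes at 1 h (1.02) and below it at 2, 5 and 8 h (0.48, 0.26 and 0.30). In PERK −/− MEFs 2, 2, 4 and 2 core genes were up, where 0.719%, 0.623%, 3.26% and 3.28% of all expressed genes were, and 6, 7, 4 and 1 were down, against 3.38%, 5.78%, 4.77% and 2.73%. In NIH3T3 cells 23 of 57 were up at 2 h and 11 at 7 h, where 5.76% and 7.01% of all expressed genes were. There 3 and 4 core genes were down, against 3.76% and 8.06% of all.

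Of 11 listed 3′ end factors that were expressed, which process histone mRNA, 0, 2, 0 and 1 were up at least 2-fold in WT MEFs at 1, 2, 5 and 8 h and none was down, with 4.33%, 5.66%, 5.86% and 6.45% of all expressed genes up and 2.29% to 4.01% down at these times. They were Lsm10 and Lsm11, subunits of the U7 particle, at 2 h and Lsm10 at 8 h, named after their values were seen and with 20 to 95 counts. Eri1, an exonuclease that trims histone mRNA, was at 66.2 TPM in the control and between 44.9 and 48.9 TPM in the Tg libraries. Of the subunits of the cleavage complex, Cpsf2 was lower than in the control (81.3 TPM) at 50.3 to 58.0 TPM and Cpsf3 was higher (39.4 TPM) at 50.4 to 62.2 TPM. Casp8ap2, which is needed for histone gene expression, was at 8.65 TPM and then at 5.58 to 7.16 TPM.

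Among 24 histone chaperones and exchange factors, 1, 0, 0 and 0 were up by the 2-fold rule after 1, 2, 5 and 8 h in WT MEFs, where 4.33%, 5.66%, 5.86% and 6.45% of all expressed genes were. Down were 1, 3, 4 and 5, against 2.29%, 4.01%, 3.55% and 3.87% of all. Besides the genes named next, the genes called were Srcap (up at 1 h) and Asf1a (down at 2 and 8 h), named after their values were seen. Ptma, which encodes the linker histone binding protein prothymosin alpha, was at 7263 TPM in the control and at 3991, 2991, 3597 and 3628 TPM at 1, 2, 5 and 8 h. Set, a chaperone of the template activating factor family, fell from 1683 TPM to between 739.8 and 825 TPM, and Nap1l1, a chaperone of H2A and H2B, from 1307 TPM to 599.99 TPM at 8 h (0.459-fold). Hmgb1, a chromatin protein that bends DNA, fell from 1813 TPM to 871 TPM at 8 h (0.481-fold). In PERK −/− MEFs none of the 24 was 2-fold up or down at any time, where 0.623% to 3.28% of all expressed genes were up and 2.73% to 5.78% down. Ptma, Set, Nap1l1 and Hmgb1 were below the control there too at 5 and 8 h, with 0.682-fold for Ptma, 0.685-fold for Set, 0.640-fold for Nap1l1 and 0.722-fold for Hmgb1 at 8 h.

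Of 20 S phase genes, 0, 1, 1 and 1 were up and 1, 1, 2 and 2 down in WT MEFs, beside 4.33% to 6.45% up and 2.29% to 4.01% down among all expressed genes. The median log2 change of the list at 1 h was 0.13. Cdt1, a licensing factor for replication origins, went from 27.4 TPM to 54.5 TPM at 1 h and was 2-fold up at the later times, at 100.4, 75.8 and 85.7 TPM. Ccne2 (cyclin E2) fell from 55.6 to 20.7 TPM at 5 h and Ccne1 (cyclin E1) from 24.0 to 10.1 TPM, and Ccna2 (cyclin A2) went from 226 to between 129 and 153 TPM. In NIH3T3 cells 11 of the 20 were above the control at 2 h and 6 at 7 h, where 35.1% and 44.0% of all expressed genes were. Ccna2 fell there from 220.3 TPM to 102 at 2 h and 75.4 at 7 h, Cdc6, a loading factor for the replicative helicase named after its values were seen, rose from 26.1 to 72.0 TPM at 2 h, and Cdt1 went from 74.5 to 108 TPM at 2 h. The part of cell cycle phase in the changes of the Hist1h1 genes was not tested.

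Of 11 other variants, 7 were expressed in MEFs. None was up at least 2-fold in any WT library, where 4.33% to 6.45% of all expressed genes were. H3f3c alone was down there, at 1, 2 and 5 h, and it is the pseudogene whose reads the authors' estimate shares out with H3f3a. In PERK −/− MEFs 3, 1, 1 and 1 were down at 1, 2, 5 and 8 h, against 3.38%, 5.78%, 4.77% and 2.73% of all. These were H3f3c at each time, and at 1 h also H2afj (101 to 42.8 TPM) and H1fx (67.1 to 28.3 TPM), named after its values were seen. Cenpa, the H3 variant of centromeres, was at 114 TPM in the control of WT MEFs and between 107 and 168 TPM after Tg. H2afv, the second H2A.Z gene, was at 57.4 TPM and then between 61.3 and 73.1 TPM.

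By likeness over the 10 MEF libraries, the genes nearest to the mean log2 TPM of the Hist1h1 genes were Aff1 (Pearson's r 0.953), Zfand2a (0.949), Slc7a6os (0.949), Hist2h2aa2 and Hist2h2aa1 (0.941 each, with equal values in the table), among 5342 candidates. Of the replacement variants H2afx followed that mean (r 0.870), whereas H2afz (0.572), H3f3b (0.254), H3f3a (−0.232) and H1f0 (−0.441) did less or not. The genes nearest to H1f0 were Anxa4 (0.966), Anxa11 (0.965), Uap1 (0.955), Tob1 (0.9501) and Mfge8 (0.948), and of the members H3f3a (0.819). The libraries share controls, genotypes and depth, so these values describe the table and carry no test.

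**Figure D4:**
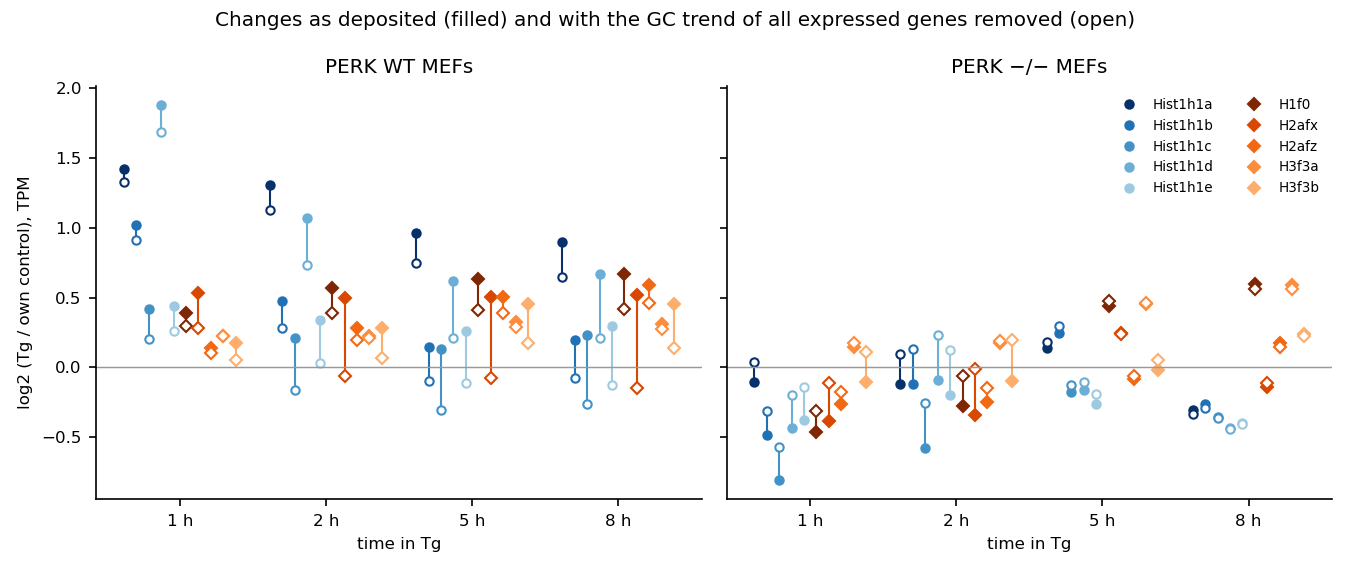
Log2 TPM change against the own control of each gene in MEFs, as deposited (filled) and after the lowess trend on G and C content over all expressed genes was removed (open), for Hist1h1 genes (circles) and replacement variants (diamonds). In WT MEFs Hist1h1a stays above 0.6 at all times, whereas H2afx and Hist1h1c drop below 0 from 2 h on, and in PERK −/− MEFs the early values move up.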

How the data were processed

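Footprint libraries of 13 conditions, 1 each, were grouped by the labels. The dose of Tg comes from the study's methods. By these methods, footprints had 22 to 34 nt, rRNA and tRNA reads were removed with STAR, the rest was aligned by Bowtie2 to mm10 RefSeq coding sequences (30 nt clipped from both ends, transcripts of less than 100 nt left out), and RSEM estimated the levels. The versions of these tools are not given in the sources used here. The authors deposited RSEM's expected counts as whole numbers, unscaled. They also deposited TPM, which the authors' run of RSEM scaled within a library over the clipped coding length.

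For this work, TPM values under 4 were raised to 4, and the log2 ratio of each Tg library to its own control was taken over all genes with a mean of at least 2 TPM. Intervals are exact (Clopper-Pearson, 95%) from the counts. With 1 library per condition no p-value is given and no replicate could be left out. A count of 3 equals 0.203 to 1.19 CPM. The 10 members and all lists were chosen with earlier results of these data known. All members are named, and of each list up to 4 genes, those with at least 100 counts in both libraries and the largest change at 2 or 8 h in WT MEFs. Gene positions and sequences came from GENCODE vM21.

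Alternatives tried were flooring at 1 TPM, adding a pseudocount of 1, CPM of the library total, TMM factors (edgeR 4.0.16), size factors of DESeq2 1.42.0, thinning to the smallest library of the table, removal of a lowess trend on G and C content (fraction 0.3; 96.1% of the expressed MEF genes had a value), no filter on mean TPM or a mean of at least 5, and thresholds of 1.5-fold and 3-fold. The code for calls and intervals was run on simulated counts with known changes and counting error only. The simulation held no spread between libraries and no division of shared reads, so it does not bear on these. Computations used R 4.3.3 and Python 3.11.15 (scipy 1.17.1, pandas 2.3.3, statsmodels 0.14.6, numpy 2.4.6, matplotlib 3.10.9).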

Additional observations from a re-analysis of the deposited data

Results flagged for a closer look

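The changes of 3 genes had opposite directions in the 2 genotypes, with all 4 Tg libraries above the control in WT MEFs and all 4 below it in PERK −/− MEFs. The mean log2 change over the 4 times was higher in WT by 1.34 for Hist1h1d, by 0.73 for Hist1h1c and by 0.64 for Hist1h1e. The difference was not tested, since each condition was 1 library, and the 4 libraries of a genotype share a control. With the trend on G and C content removed, Hist1h1c was at −0.16, −0.30 and −0.26 at 2, 5 and 8 h in WT MEFs. Hist1h1e was then at −0.11 and −0.13 at 5 and 8 h. In PERK −/− MEFs at 2 h, Hist1h1d was then at 0.23 and Hist1h1e at 0.12. Scaling by TMM also put both of these genes above the control in that library. The DESeq2 scaling did so for Hist1h1d, whose log2 counting interval there, −0.07 to 0.04, included no change. The opposite directions therefore rest on the values as deposited. These 3 genes share windows of their coding sequence, so they are not independent of each other.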

How the results depend on the processing

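Over the 4 times in WT MEFs, 5 of the 20 pairs of a Hist1h1 gene and a time were up at least 2-fold, where 4.33% to 6.45% of all expressed genes were at a time. These pairs share a control, so they are not independent. With TMM factors or with the trend on G and C content removed the number was 3, with a threshold of 1.5-fold it was 9 and with 3-fold 1. For the replacement variants in WT MEFs it was 0, and 3 at 1.5-fold. In PERK −/− MEFs it was 0 for both groups, and 2 at 1.5-fold for the replacement variants, where 0.623% to 3.28% of all expressed genes were up 2-fold at a time. In NIH3T3 cells it was 4 for the Hist1h1 genes and within 1.5 times of this under each alternative, and 1 for the replacement variants, with 3 at 1.5-fold and 0 at 3-fold. There 5.76% and 7.01% of all expressed genes were up 2-fold at 2 and 7 h. No share of all genes was taken at 1.5-fold or 3-fold, so counts at these thresholds show only how the calls move. No change of 2-fold or more took the other sign under any of the 7 alternatives of scaling, floor, depth and G and C content, but 20 of the 100 changes of a member did, the largest of 0.52 on the log2 scale, 10 of them in WT MEFs, where only the removal of the trend on G and C content did so. The Hist1h1 median of PERK −/− MEFs at 2 h was −0.12 and became positive with TMM factors and DESeq2 size factors too, which moved the median of all expressed genes by 0.11 there. DESeq2 size factors moved it by 0.13 in NIH3T3 cells at 2 h. No paired analysis was possible because each condition was 1 library and the groups have no replicates that could be paired. Counting error limits H1f0 most, with 154 to 2286 counts.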
